A study of Mus musculus with 14 samples.

Results

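Amphiregulin, the IL-33 receptor and a group of receptors and ligands that lymphocytes of repairing tissues are known to carry were followed as 8 genes of the 32285 measured: Areg, Il1rl1, Il7r, Ramp1, Ramp3, Calcrl, Tnfsf8 and Tnfrsf9. The genes were taken by their symbols, and they were chosen from their measured levels in T cells of these same nodules, so their levels between T cell clusters and gates are given as a description with no test. Where T cells were compared in a fit over all genes, the p-values of these genes are not independent evidence, since the choice used the same cells. The data came from white nodules of 7 cKO mice, 1 mouse per library, that carried Cγ1-Cre, floxed Eif3e alleles and a Cre-dependent Rosa26-YFP reporter. Cγ1-Cre acts in B cells after activation, and no nodule-free or Cre-negative control library was among the samples, so no level here has a control value beside it.

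For 5 mice B cell receptors were sequenced beside the RNA (the BCR mice, numbered 27, 29, 31, 33 and 34), and for 2 mice T cell receptors were (the TCR mice, numbered 30 and 32). Liver nodules came from mouse 27 at 12 mo and mouse 30 at 14 mo of age, and spleen nodules from mouse 31 at 13 mo and mouse 32 at 12 mo. The lung nodule was that of mouse 29 at 12 mo, the thymus nodule that of mouse 33 at 16 mo, and mouse 34 at 9 mo gave lung and thymus together. The sample of mouse 27 was a secondary tumor, grown after its primary nodule was transplanted, according to a figure legend of the study. By its methods, tumor cells were passed into Rag2-/- recipients, hosts without their own T and B cells. Each site was sampled in 1 or 2 mice, and the site of a nodule cannot be told apart from its mouse.

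Of 77442 deposited cells, 75503 passed the quality limits, with 19254544 to 122550206 transcript molecules (UMIs) per library. Clustering gave 28183 T-like cells, named from T cell markers, and 26644 B-like cells. The T-like cells numbered 575, 5121, 9313, 877, 7913, 3490 and 894 in mice 27, 29, 30, 31, 32, 33 and 34, the order in which all values of 7 mice are given. Of 72288 distinct barcodes, 3129 occurred in more than 1 library. Eif3e, the gene targeted in B cells, was read at 176 to 230 UMIs per 1000000 summed UMIs (CPM) in the B-like cells of the 5 BCR mice and at 118 to 170 CPM in the T-like cells of all 7 mice. Without a control library, and with the transcript end that was read unsettled, these values do not check the deletion.

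Amphiregulin is a ligand of the EGF receptor, and regulatory T cells and group 2 innate lymphoid cells release it during repair of lung, muscle and skin. Il1rl1 encodes ST2, the receptor for the alarmin IL-33, which damaged cells set free and which drives amphiregulin release in those lymphocytes. Il7r is the receptor chain for IL-7 and, with Crlf2, for TSLP. Calcrl is a G protein-coupled receptor that binds CGRP when paired with Ramp1 and adrenomedullin when paired with Ramp2 or Ramp3, and nerve-derived CGRP acts on lymphocytes through Ramp1. Tnfsf8 encodes CD30 ligand, and Tnfrsf9 encodes the costimulatory receptor 4-1BB.

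The sequences upstream of Areg and Il1rl1 are shown because of their levels in a T-like cluster, described below, with Gata3, a GATA factor, among its leading genes. Both genes were higher there than in a cluster led by Ccl5. Il1rl1 was not high there in every mouse, and in mouse 34 it was at 4.34 CPM, from 2 UMIs. They are RefSeq bases of build GRCm38.p6, 250 bases before an annotated start, read in the direction of the gene, with motif matches in capitals. Areg (ENSMUSG00000029378) lies on chromosome 5 from 91139599 to 91148432. Its window at chr5:91139349-91139598 on the plus strand held a CRE-type match (TGACGTCA) that began 61 bases before the start and a TATA-type match (TATAAA) 31 bases before it. It held no GATA-type match (AGATAA).
Areg: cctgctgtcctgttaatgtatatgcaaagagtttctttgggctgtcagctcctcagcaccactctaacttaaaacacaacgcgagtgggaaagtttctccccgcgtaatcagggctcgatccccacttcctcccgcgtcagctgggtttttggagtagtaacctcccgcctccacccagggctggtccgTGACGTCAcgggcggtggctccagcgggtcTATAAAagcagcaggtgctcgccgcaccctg
Il1rl1 (ENSMUSG00000026069) lies on chromosome 1 from 40404864 to 40465418. The 2 starts used here, called first and second below, lie inside this span, and no window before its first base is shown. The window at chr1:40429320-40429569, on the plus strand, held a GATA-type match (AGATAA) that began 217 bases before the start, and the window at chr1:40439379-40439628 held one on the other strand 103 bases before it.
Il1rl1, first start: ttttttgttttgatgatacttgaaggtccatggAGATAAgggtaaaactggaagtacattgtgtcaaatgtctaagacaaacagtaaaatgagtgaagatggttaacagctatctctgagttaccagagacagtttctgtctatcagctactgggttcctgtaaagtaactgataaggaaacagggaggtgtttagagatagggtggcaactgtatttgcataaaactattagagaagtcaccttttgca
Il1rl1, second start: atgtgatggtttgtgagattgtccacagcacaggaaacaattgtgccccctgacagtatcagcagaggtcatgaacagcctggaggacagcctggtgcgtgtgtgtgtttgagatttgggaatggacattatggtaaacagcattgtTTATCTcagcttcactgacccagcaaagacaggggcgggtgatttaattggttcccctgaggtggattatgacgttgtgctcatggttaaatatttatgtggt
These 3 motifs and an AP-1-type motif were searched on both strands. Of 32851 windows, TGACGTCA was in 1.55%, TGANTCA (AP-1-type) in 6.75%, TATAAA in 12.4% and AGATAA in 9.99%. The windows of Ramp1, Ramp3, Calcrl, Il7r and Tnfsf8 held none of these letters, and 1 of 2 windows of Tnfrsf9 held TGAGTCA 15 bases before the start. The other members lie, on the same build, at chr15:9506159-9529941 (Il7r), chr1:91179822-91225196 (Ramp1), chr11:6658506-6677478 (Ramp3), chr2:84330626-84425405 (Calcrl), chr4:63831202-63861508 (Tnfsf8) and chr4:150920155-150946104 (Tnfrsf9). A match in a window is a description of its letters, and the UMIs do not tell which start was used.

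In the T-like cells, Areg was at 478, 543, 349, 575, 239, 117 and 124 CPM. The 2 lowest levels were in the mice with a thymus nodule, and the other 5 mice lay above them. From a summed level alone, fewer Areg-positive cells and less Areg RNA in each of them cannot be told apart. With every cell thinned to 1000 UMIs, Areg was seen in 12.0%, 22.4%, 18.7%, 22.2%, 14.5%, 7.42% and 6.80% of T-like cells, so the share was lowest in the same mice as the level. In the B-like cells of the 5 BCR mice the thinned share was 0.0646% to 0.757%, and whether these UMIs came from the cells or from free RNA was not tested.

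Areg UMIs were spread unevenly over cells. The 1% of T-like cells richest in Areg held 23.3% to 45.6% of its UMIs, and the highest single cell carried 37 to 94 Areg UMIs. Cells with at least 1 Areg UMI carried a mean of 2.64 (mouse 30) to 6.32 (mouse 27). In mouse 27, 581 Areg UMIs came from 92 of 575 cells, and in mouse 31, 990 came from 243 of 877. Such unevenness was not particular to Areg. The richest 1% of T-like cells held 12.9% to 42.5% of Tnfsf8 UMIs, 18.8% to 50% of Ramp3 UMIs and 7.03% to 11.2% of Il7r UMIs.

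Il1rl1 was the member that differed most between mice. It stood at 0.823, 127, 7.21, 15.7, 21.9, 4.82 and 3.50 CPM. Mouse 29, with a lung nodule, was far above the other mice, while mouse 34, whose nodule was from lung and thymus, was near the low end. With 1 library each, the site was not tested. After thinning, Il1rl1 was seen in 7.67% of T-like cells in mouse 29 and in 0.244% to 2.33% in the other mice.

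Il7r, which resting and memory T cells carry, was the most even member, at 302, 852, 440, 392, 294, 441 and 473 CPM. Its highest level, in mouse 29, stood apart from 6 mice that lay between 294 and 473 CPM. Ramp1, the CGRP partner, was at 1.65, 24.1, 77.6, 42.4, 64.8, 6.90 and 85.1 CPM. Ramp3, the adrenomedullin partner, was at 32.9, 194, 66.9, 23.8, 42.0, 25.6 and 24.2 CPM. Ramp1 was thus highest in mouse 34 and Ramp3 in mouse 29, and the levels of the 2 partners did not share an order. Ramp3 overlaps Gm11978 in the annotation, and whether strand was used in counting is not given in the sources used here, so its UMIs are uncertain to that extent.

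Calcrl, the receptor that both partners need, was at 53.5, 244, 388, 222, 146, 41.9 and 54.8 CPM. Tnfsf8 was at 148, 1102, 981, 477, 598, 48.1 and 154 CPM, and Tnfrsf9 at 369, 188, 164, 338, 47.6, 208 and 139 CPM. Tnfsf8 and Calcrl were both lowest in mouse 33, and the 4 mice with the highest Tnfsf8 were also the 4 with the highest Calcrl.

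**Figure D1:**
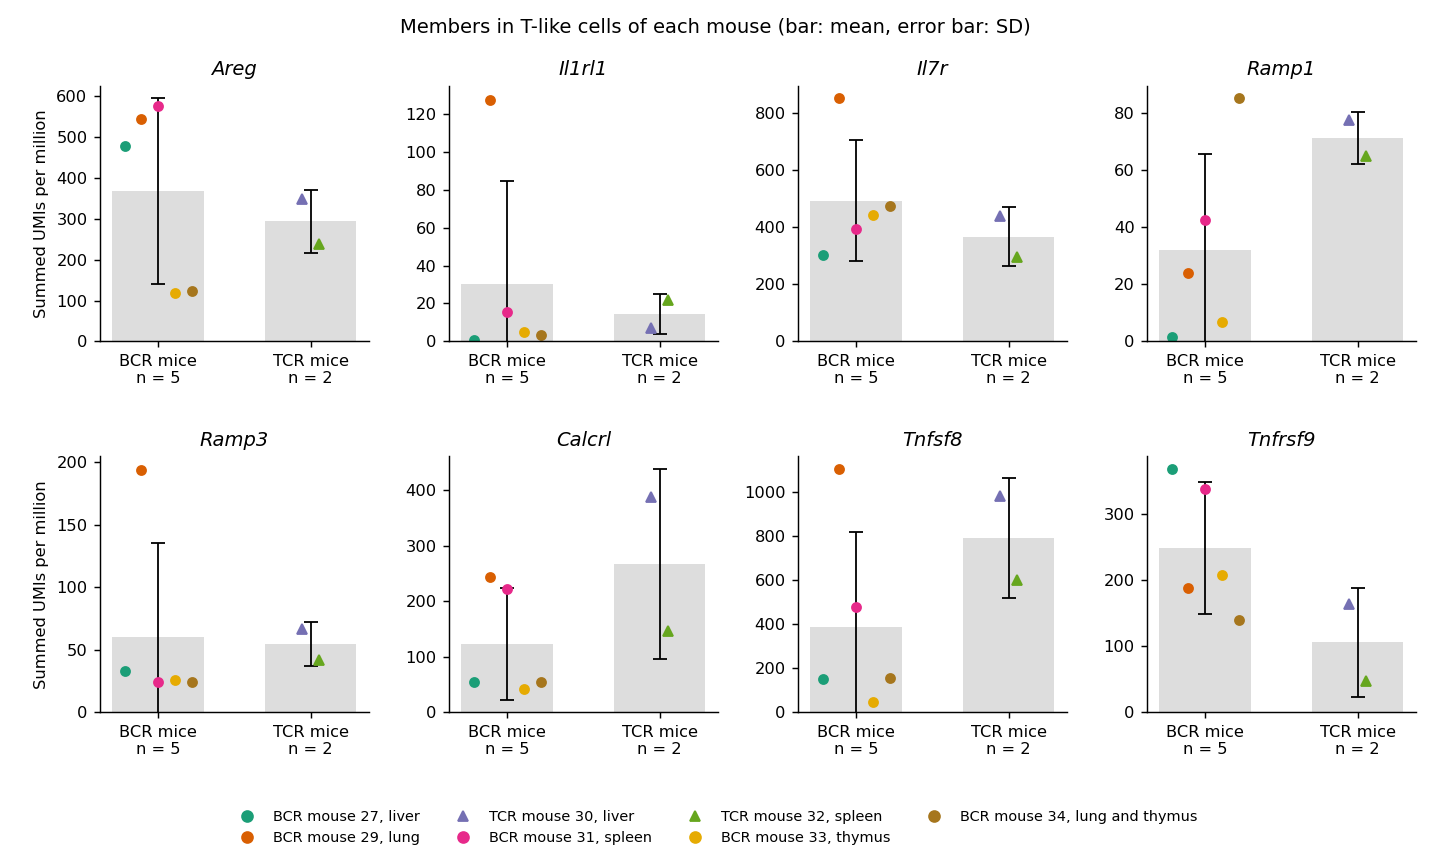
CPM of the 8 genes in T-like cells on linear axes from 0, 1 point per mouse, with grey bars for the mean and error bars for the SD over the 5 BCR and 2 TCR mice (SD bars that reach below 0 are clipped at the axis). Mouse 29 stands alone for Il1rl1 at 127 CPM and for Ramp3 at 194 CPM.

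The question of whether these genes differed between T-like cells of TCR and BCR mice was tested with edgeR's quasi-likelihood test over 13437 genes, in which all 8 members passed the filter. Of all genes, 3 were called (0.0223%) at an adjusted p under 0.05, and of the members 0 were called, while 1167 genes had an unadjusted p under 0.05. Tnfrsf9 was nearest to the threshold, at 106 ± 82.4 CPM (SD) over the 2 TCR mice against 248 ± 99.7 CPM over the 5 BCR mice. Its log2 fold change was -1.36 ± 0.56 (SE), with an edgeR adjusted p of 0.556. Areg stood at 294 ± 77.4 CPM (SD) in the first and 367 ± 228 CPM in the second, with a log2 fold change of -0.42 ± 0.67 (SE) and an edgeR adjusted p of 0.856. Ramp1 (1.09), Calcrl (1.01) and Tnfsf8 (0.93) had log2 fold changes above 0 and Il7r (-0.54) and Il1rl1 (-1.18) below 0. For all 8 the levels of the 2 groups of mice overlapped. The share of all genes that overlapped was not counted, so nothing particular to the members can be read from this. The Tnfrsf9 means lay farther apart than either SD, and so did those of Ramp1 (71.2 ± 9.07 against 32.04 ± 33.7 CPM), but neither passed the adjusted test. The median over the members was -0.35 on the log2 scale and that over all genes 0.026.

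A p that misses the threshold does not show that the levels were alike. Il1rl1 turned from a log2 fold change of -1.18 to 1.19 (edgeR adjusted p = 0.433) when mouse 29 was left out, and Ramp3 to 0.92 (edgeR adjusted p = 0.127). The T-like cells of mouse 30 came mostly from 1 cluster (6843 cells) and those of mouse 32 from another (6341 cells), while those of the BCR mice came from clusters led by Ccl5 and by Ikzf2. None of the genes in the lists of EGF receptor ligands, the IL-33, IL-7 and CGRP axes, regulatory T cell, type 2 or immediate early genes was called.

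All 8 members were higher in T-like than in B-like cells of the same nodule in each of 5 BCR mice, against 19.5% of all genes that were higher in all 5. The choice of the members from T cell levels favoured this direction, so it is a description and not a test. The mean log2 ratio, with 10 CPM added to both sides, was 4.54 for Areg, 4.5 for Il7r, 4.11 for Tnfrsf9, 3.88 for Tnfsf8, 2.73 for Calcrl, 2.09 for Ramp3, 1.55 for Ramp1 and 1.10 for Il1rl1. Il1rl1 in mice 27 (0.823 against 0.737 CPM) and 34 (3.50 against 3.27 CPM) differed by less than counting error. Areg in B-like cells was at 0.889, 10.7, 1.35, 1.99 and 3.08 CPM in mice 27, 29, 31, 33 and 34. Higher B-like values were those of Calcrl in mouse 31, at 20.1 CPM with a UMI in 11.5% of cells, and of Il7r in mouse 29, at 50.7 CPM. Of the 17 tissue regulatory T cell genes, 16 were measured, 12 of them higher in T-like cells in all 5 mice and 1, Irf4, lower in all 5.

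**Figure D2:**
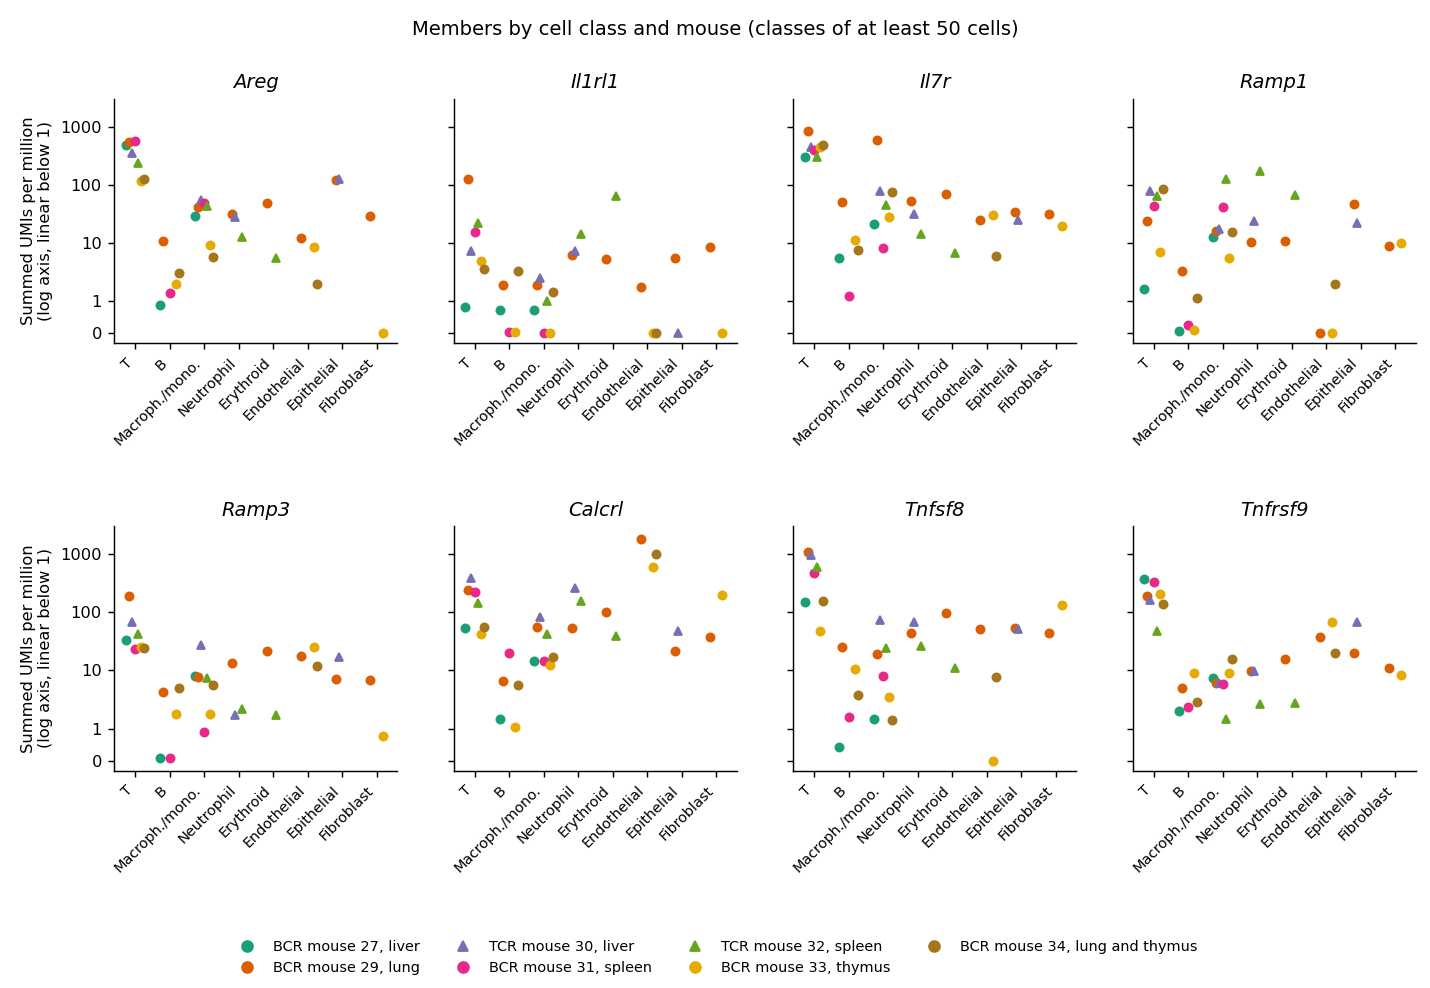
CPM of the 8 genes by cell class, 1 point per mouse for classes of at least 50 cells, on a log axis that is linear below 1 CPM. The endothelial-like points of Calcrl, at 604 to 1834 CPM, lie above those of every other class, and the T-like points lie above the B-like points of the same mouse.

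Several members were also read outside the T-like cells. Calcrl, known in vessels as the adrenomedullin receptor, reached 1834, 604 and 1002 CPM in endothelial-like cells of mice 29, 33 and 34, and Ramp2 stood at 510 CPM in the pooled endothelial-like cells. Il7r was at 588 CPM in macrophage or monocyte-like cells of mouse 29, against 21.3, 76.6, 44.7, 28.0 and 75.3 CPM in mice 27, 30, 32, 33 and 34. Mouse 31, with 426 such cells, is not in this list, and Il7r was at 10.4 CPM in its whole library. In the cluster of mouse 29 that held most of it, led by Apoe, Gpnmb and Spp1, Il7r was at 657 CPM and the T cell markers summed to 17.1 CPM. Areg was at 121 CPM in epithelial-like cells of mouse 29 and 124 CPM in the 77 of mouse 30, a library in which 88.8% of cells were T-like, and the part of free RNA was not tested.

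In mouse 32, erythroid-like cells carried Il1rl1 at 64.2 CPM and Ramp1 at 66.1 CPM, and they held 4732 Il1rl1 UMIs, more than its T-like cells (629 UMIs). Cells gated on mast cell and basophil markers, which carry ST2, numbered 161 in this library, 119 of them erythroid-like and 41 neutrophil-like. They held 434 Il1rl1 UMIs, at 112 CPM, of which 332 came from the erythroid-like cells, and Ramp1 was at 146 CPM in them. Neutrophil-like cells carried Calcrl at 261 and 158 CPM in mice 30 and 32, and Ramp1 at 174 CPM in mouse 32. The levels of mouse 29, which gave 2166 of 4336 neutrophil-like cells, are not listed here. All levels in this paragraph belong to 1 or 2 mice and were not tested.

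Il33, the ligand of ST2, was at 108 CPM in pooled fibroblast-like, 49.6 CPM in epithelial-like and 42.1 CPM in endothelial-like cells. Egfr, the receptor of amphiregulin, was at 160 CPM in fibroblast-like and 52.1 CPM in epithelial-like cells. Adm was at 68.9 CPM in fibroblast-like and 58.1 CPM in endothelial-like cells, while Calca, which encodes CGRP, was at 10.1 CPM in pooled T-like cells. Calca varied widely between mice, at 17.9 ± 29.2 CPM (SD) in T-like cells of the 5 BCR mice and 3.89 ± 1.45 CPM in the 2 TCR mice. In T-like cells Il33 was at 1.35, Egfr at 1.38 and Adm at 0.581 CPM. These pooled classes came mostly from mouse 29, which gave 2972 of 3233 fibroblast-like, 480 of 729 endothelial-like and 437 of 590 epithelial-like cells. Tnfsf9, the ligand of 4-1BB, was at 44.7 CPM, and Tnfrsf8, the receptor of CD30 ligand, at 18.9 CPM in B-like cells.

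Among the T-like clusters with at least 50 cells in at least 6 mice, one was led by Ikzf2, Penk, Hspa1a and Gata3 (5904 cells, 64.2% of them from mouse 29) and one by Ccl5, Nkg7 and Gzmb (6249 cells). All 8 members were higher in the Ikzf2-led cluster than in the Ccl5-led cluster in each of 6 mice, against 20.2% of all genes. The members took no part in drawing the clusters. They were chosen from their levels in T cells of these nodules, so the difference is a description and not a test. The median log2 ratio over the members was 2.07 and over all genes 0.11.

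Areg was at 674, 418, 824, 796, 1315 and 364 CPM in the Ikzf2-led cluster of mice 29, 30, 31, 32, 33 and 34, and at 45.9, 29.5, 109, 43.2, 35.5 and 80.7 CPM in the Ccl5-led cluster. The 2 ranges did not overlap in these 6 mice. Here and for Calcrl and Tnfsf8 below, the share of all genes with no such overlap was not counted. Mouse 33, with the lowest Areg level over all T-like cells, had the highest level within the Ikzf2-led cluster, which held 451 of its 3490 T-like cells. Mouse 27 had 18 cells in the Ikzf2-led cluster and was not compared, and Areg was at 453 CPM in its Ccl5-led cells.

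On the scale of the mean log2 ratio over 6 mice, with 10 CPM added to both sides, Areg stood at 3.45 (SD 0.96). Tnfsf8 followed with a mean log2 ratio of 2.87, Il1rl1 with 2.11, Ramp3 with 2.07, Calcrl with 2.06, Tnfrsf9 with 1.97, Ramp1 with 1.96 and Il7r with 0.79. In the Ikzf2-led cluster of these 6 mice Il1rl1 was at 169, 42.5, 24.5, 136, 53.8 and 4.34 CPM, and in the Ccl5-led cluster at 5.57, 0, 5.31, 12.8, 0.318 and 2.18 CPM. The pair of mouse 34 rested on 2 and 5 UMIs and differed by less than counting error, with a ratio of 0.23 on the log2 scale.

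The genes of the neuropeptide receptors were set out in the same order of mice. Ramp1 was at 31.03, 79.5, 80.5, 23.7, 61.5 and 271 CPM in the Ikzf2-led and 2.78, 9.59, 3.99, 12.8, 2.31 and 55.0 CPM in the Ccl5-led cluster. Ramp3 was at 248, 75.8, 52.5, 180, 193 and 62.9 CPM against 44.6, 16.2, 3.99, 32.3, 15.5 and 22.7 CPM. Calcrl was at 280, 351, 285, 206, 251 and 150 CPM against 61.3, 111, 51.8, 39.9, 28.9 and 40.6 CPM, with no overlap between the clusters.

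Tnfsf8 was at 1271, 1164, 628, 1087, 421 and 475 CPM against 168, 173, 137, 91.6, 17.9 and 95.6 CPM, likewise with no overlap. Tnfrsf9 was at 236, 128, 716, 215, 742 and 291 CPM against 71.0, 65.7, 61.1, 28.0, 173 and 106 CPM. Il7r was at 893, 921, 584, 753, 747 and 911 CPM against 803, 474, 233, 413, 491 and 481 CPM, the narrowest gap of the 8.

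Of 17 tissue regulatory T cell genes, 11 were higher in the Ikzf2-led cluster in all 6 mice and 0 lower, among them Gata3 (a mean of 233 against 38.7 CPM), Ccr8 (222 against 15.9 CPM), Pparg (49.9 against 1.97 CPM) and Tnfrsf4 (384 against 88.9 CPM). Foxp3 was at a mean of 43.3 against 1.16 CPM. Over all genes, 20.2% were higher in all 6 mice. The gene lists were chosen with earlier results of these data known, and the regulatory T cell genes were not left out of the clustering. Gata3 was the leading gene by which the Ikzf2-led cluster was picked, and Ikzf2, also in the list, led it. Their direction was thus favoured by the choice. Markers of group 2 innate lymphoid cells summed to 802 CPM in the Ikzf2-led and 286 CPM in the Ccl5-led cluster, with 0 and 1 of 9 at 0, T cell markers to 1578 against 3151 CPM with 0 of 9 at 0, NK cell markers to 28.8 against 481 CPM with 3 and 0 of 7 at 0, and neutrophil markers to 344 against 72.7 CPM. Their part in the result was not tested. Of 10 immediate early genes that tissue dissociation can raise, 3 were higher in all 6 mice, and their part was not tested.

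**Figure D3:**
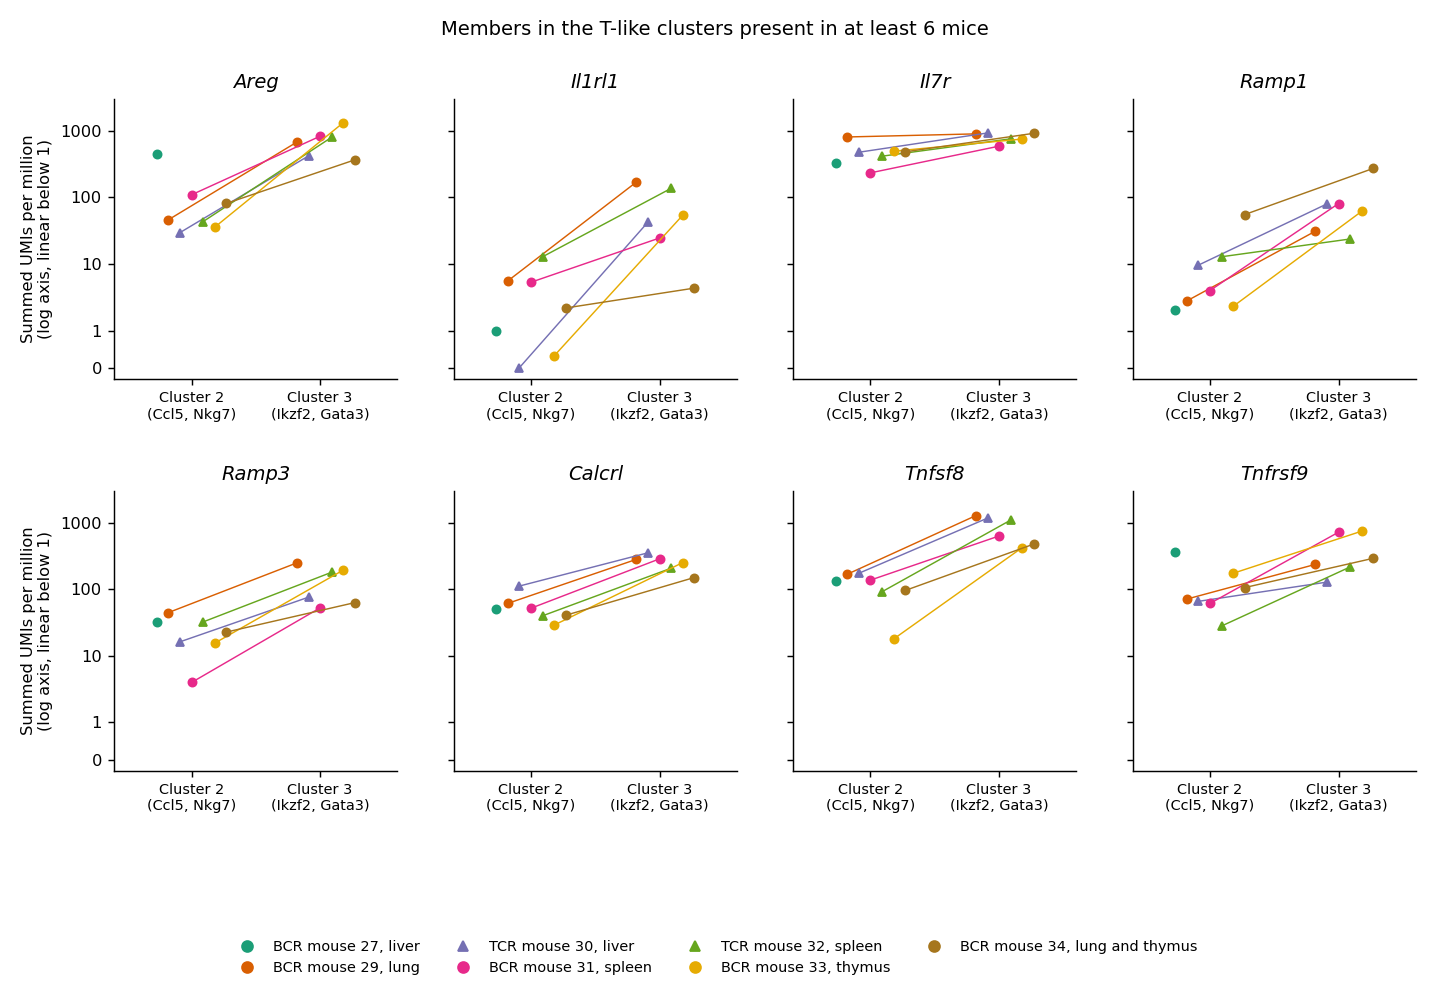
CPM of the 8 genes in the Ccl5-led (cluster 2) and the Ikzf2-led (cluster 3) T-like cells on a log axis that is linear below 1 CPM, with a line for each of the 6 mice in both and a lone point for mouse 27. All lines rise toward the Ikzf2-led cluster, for Areg to between 364 and 1315 CPM.

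A further cluster, led by Ifit1 and Hspa1a (2366 cells), had Areg at 789, 727, 1106 and 1213 CPM in mice 29, 30, 31 and 32. The immediate early genes summed to 20406 to 42199 CPM there, against 10232 to 21193 CPM in the Ikzf2-led cluster and 4355 to 21330 CPM in the Ccl5-led cluster.

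Cells with Foxp3 UMIs, the mark of regulatory T cells, were set beside Cd4-positive cells without them in the 3 mice with at least 50 cells on both sides. The Foxp3 gate held 80, 52 and 121 cells in mice 29, 31 and 32, and it held 0, 40, 18 and 37 cells in the mice left out (27, 30, 33 and 34). Areg was at 729, 1033 and 921 CPM in the Foxp3-gated and 388, 720 and 190 CPM in the Cd4-gated cells of mice 29, 31 and 32, a mean log2 ratio of 1.21 (SD 0.90). Areg was higher in the Foxp3-gated cells in all 3 mice, and Cd4-gated cells also carried it. In mouse 32, cells with the receptor of the T cell clone made up 78.4% of the Cd4-gated and 5.79% of the Foxp3-gated cells. With these clone cells removed from both gates, a step chosen after seeing the data, Areg there was at 961 against 325 CPM. Clone cells without a sequenced receptor could remain in both gates.

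Tnfrsf9 was at 627, 945 and 202 against 213, 430 and 44.6 CPM, a mean log2 ratio of 1.53, and Calcrl at 390, 429 and 333 against 218, 261 and 141 CPM, a mean log2 ratio of 0.90. These 3 of 8 members were higher in all 3 mice, against 14.2% of all genes, and 3 were with the clone cells removed. Il1rl1 was at 178, 0 and 202 against 48.8, 26.3 and 12.6 CPM, so it was higher in mice 29 and 32. Its 0 UMIs in mouse 31 allow up to 32.98 CPM, which is above the Cd4-gated level, and a difference there was not detectable at this depth. Il7r was at 822, 715 and 774 against 848, 416 and 210 CPM and Ramp3 at 84.8, 22.0 and 143 against 176, 38.1 and 38.0 CPM. These 2 genes had no common direction. Ramp1 was at 25.4, 65.96 and 15.9 against 51.7, 49.8 and 89.9 CPM and Tnfsf8 at 594, 539 and 825 against 1369, 594 and 630 CPM, and neither went 1 way in all 3 mice. Of the immediate early genes, 8 of 10 were also higher in all 3 mice, and their part in the result was not tested.

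Cd8-gated cells, which hold cytotoxic T cells, had Areg at 63.3, 43.1, 98.0, 44.6, 27.4 and 14.4 CPM in mice 29, 30, 31, 32, 33 and 34. In mouse 27 the level was 641 CPM, from 197 UMIs in 19 cells. Cd4-gated cells had 325, 388, 304, 720, 190, 149 and 103 CPM over the 7 mice, a level above the Cd8-gated one in each mouse other than mouse 27. T-like cells in no gate numbered 294, 4079, 7243, 566, 4472, 1309 and 343 in the 7 mice. The gated levels do not stand for them.

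**Figure D4:**
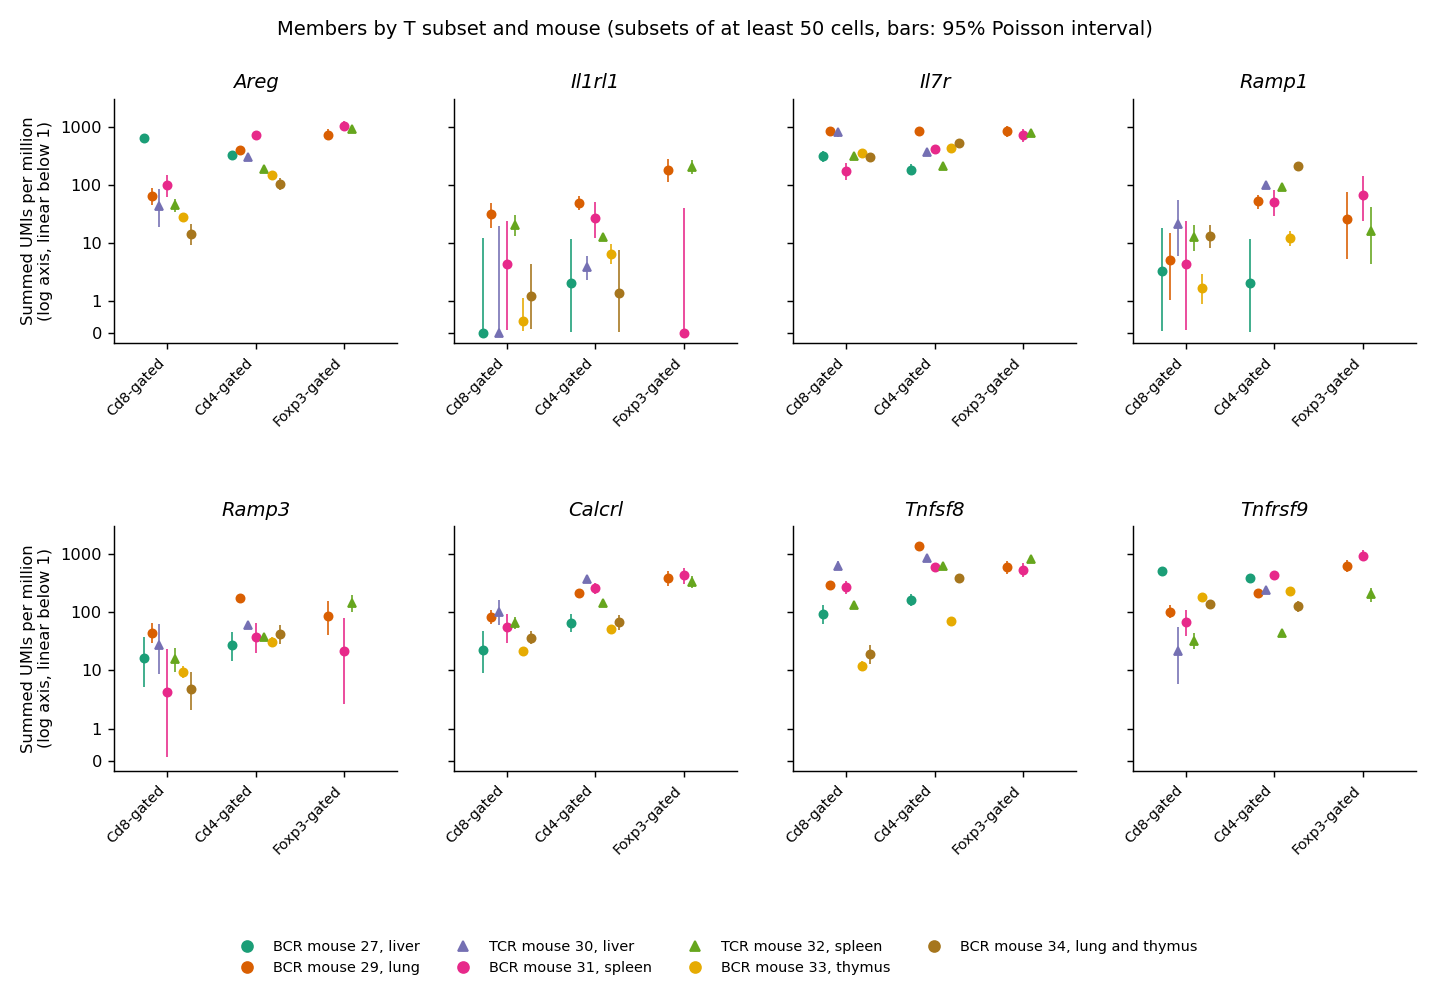
CPM of the 8 genes in Cd8-gated, Cd4-gated and Foxp3-gated T-like cells, 1 point per mouse with at least 50 cells, on a log axis that is linear below 1 CPM, with bars for the 95% Poisson interval. Areg lies between 729 and 1033 CPM in Foxp3-gated cells, and at 14.4 to 98.0 CPM in Cd8-gated cells other than those of mouse 27.

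In single T-like cells thinned to 1000 UMIs, 3 members were read more often in Areg-positive than in Areg-negative cells in all 7 mice, as were 1.74% of all genes at a mean of 10 CPM or more. Tnfsf8 was read in a mean of 34.8% of Areg-positive and 22.1% of Areg-negative cells, Tnfrsf9 in 21.8% and 13.1% and Ramp3 in 9.03% and 4.52%. Il1rl1 and Calcrl were higher in 6 of 7 mice, and Il7r and Ramp1 in 3 of 7. Gata3 was read in 16.9% of Areg-positive and 10.2% of Areg-negative cells, higher in all 7 mice, and Foxp3 in 1.56% and 1.13%, higher in 4. Of the genes that dissociation can raise, Fos was read in 62.9% and 53.9% and Hspa1a in 32.6% and 29%, each higher in 5 of 7 mice, and their part was not tested. Cells of 1 library share that library, and no test was made.

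The TCR mice each had a large T cell clone, and it was set beside the other cells with a sequenced T cell receptor in the same mouse. Cells of any class with a sequenced receptor were kept on both sides. The clone held 2107 of 2503 such cells in mouse 30 and 4868 of 5396 in mouse 32. In edgeR's quasi-likelihood test with the mouse as a block, 5 of 11857 genes were called (0.0422%), all lower in the clone, and 0 members were, while 985 genes had an unadjusted p under 0.05.

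For Ramp1 the clone stood at 128 CPM and the other cells at 29 CPM in mouse 30, and at 84.8 against 26.4 CPM in mouse 32. In mouse 32 the clone held 2349 Ramp1 UMIs and all T-like cells held 1858. Part of the Ramp1 UMIs of this clone thus came from cells outside the T-like class. The log2 fold change of Ramp1 was 1.79 ± 0.25 (SE), with an edgeR adjusted p of 0.144. It was 1.78 to 2.05 over all settings, T-like class cells alone among them. DESeq2 called it (adjusted p = 0.00596), as did edgeR with no filter on low counts (adjusted p = 0.000635). Both settings also called many more genes in all than the main fit. The 3 other alternatives left it uncalled, with an edgeR adjusted p up to 0.696. Il1rl1 went the other way, at 0.922 against 6.0 CPM (5 and 6 UMIs) and 19.6 against 58.7 CPM. Its log2 fold change was -1.97 ± 0.40 (SE), with an edgeR adjusted p of 0.261, and it passed only with no filter (edgeR adjusted p = 0.0235).

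Il7r was at 378 against 506 CPM in mouse 30 and 188 against 436 CPM in mouse 32 (edgeR adjusted p = 0.397), and Calcrl at 372 against 211 CPM and 125 against 74.8 CPM. Areg was at 280 against 210 CPM in mouse 30 and 153 against 213 CPM in mouse 32, a log2 fold change of -0.14 (edgeR adjusted p = 0.964). Tnfsf8 was at 854 against 690 CPM and 473 against 363 CPM, and Ramp3 at 53.8 against 29 CPM and 25.9 against 57.4 CPM. Areg, Ramp3 and Tnfrsf9 (254 against 68.0 CPM, then 31.6 against 57.8 CPM) differed in sign between the 2 mice.

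**Figure D5:**
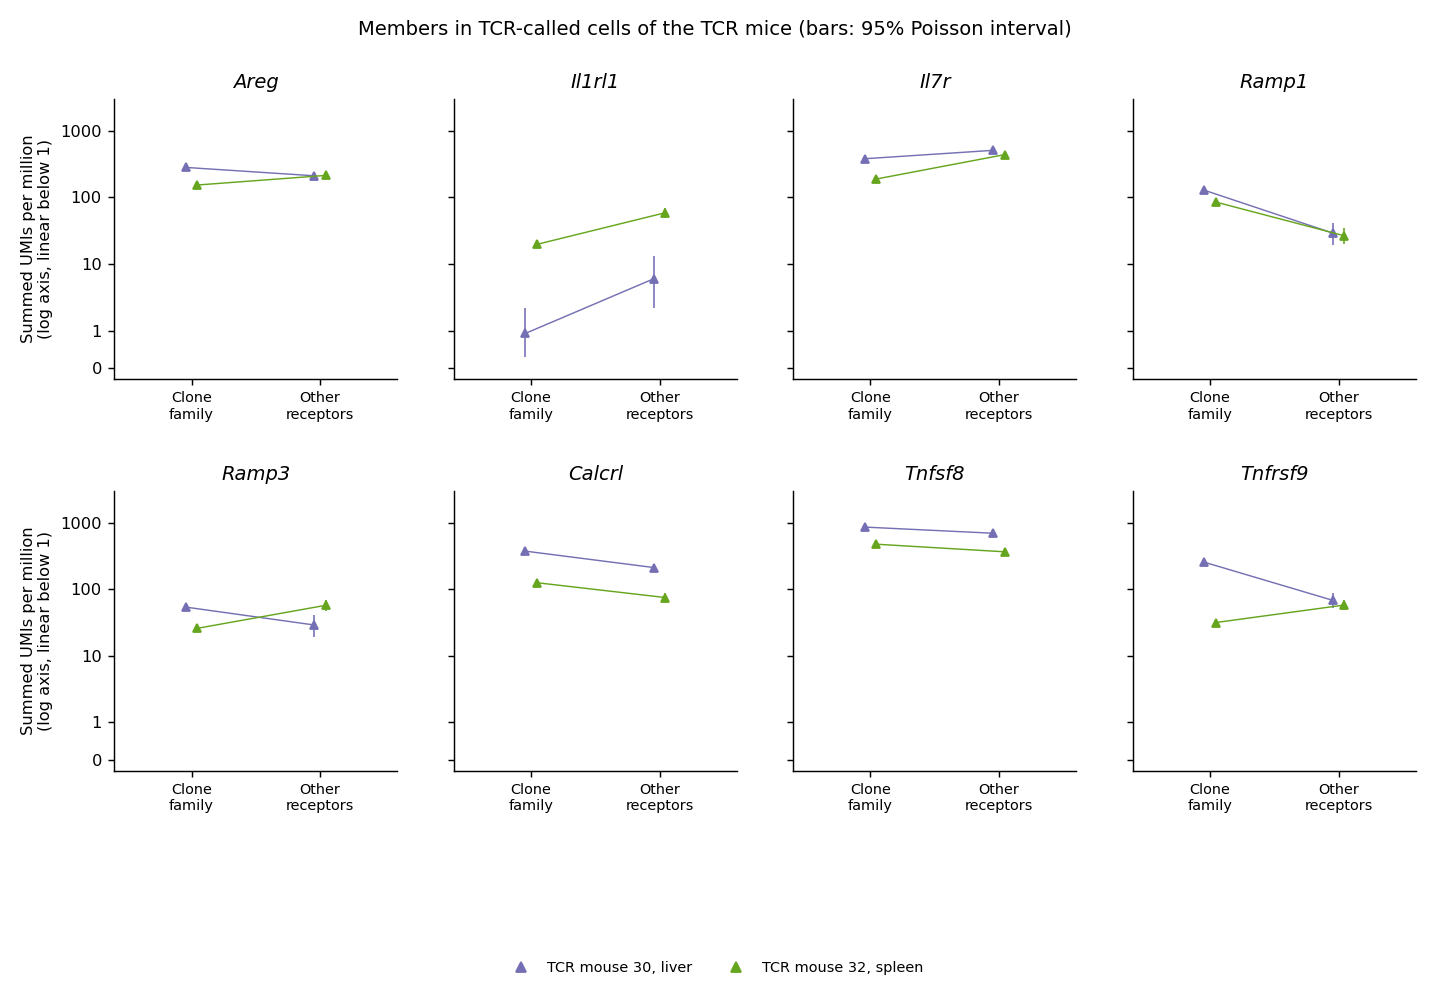
CPM of the 8 genes in the clone and in cells with other T cell receptors of mice 30 and 32, on a log axis that is linear below 1 CPM, with bars for the 95% Poisson interval and a line per mouse. Ramp1 falls from 128 to 29 and from 84.8 to 26.4 CPM between clone and other cells, and Il1rl1 is lower in the clone of both mice.

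Over 31 combinations of class and mouse, the genes whose levels were most like those of each member were listed as a description. Areg was most like 4930417O13Rik (Pearson's r = 0.874), Ptpn22 (0.872) and Ikzf2 (0.872), Tnfsf8 was most like Gata3 (0.946), and Tnfrsf9 most like Camk4 (0.941). Il7r was most like Ptpn22 (0.864), Ramp3 most like Saraf (0.846) and Calcrl most like Arl15 (0.822). Over 17 combinations of T cell subset and mouse, Areg was most like Stk40 (0.860), Il1rl1 like Acod1 (0.929) and Lrrc32 (0.876), Ramp1 like Nebl (0.915) and Ramp3 like Paxbp1 (0.906). The points share libraries and depth, and no p is given.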

How the data were processed

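Single-cell RNA of 7 white nodules was analysed from the UMI counts that the authors deposited per cell and gene, 1 library per mouse, with V(D)J clonotypes from a second library. Build mm10 (GRCm38) is named, V(D)J reads were assembled with SeekSoulTools per the labels, and the aligner, annotation and cell calling are not given in the sources used here. The labels and the methods differ on whether the kit read the 5′ or 3′ end. Cells with under 201 UMIs, under 101 genes or over 10% mitochondrial UMIs were left out.

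Cells were clustered with scanpy 1.11.5 (2000 variable genes, 30 principal components, 15 neighbours, Leiden resolution 1) and named from at least 3 detected markers, by a rule adjusted after the clusters were seen. The members were left out of the clustering. No doublet caller was run. T-like cells with at least 2 B cell UMIs were removed as an alternative. UMIs were summed per mouse and tested with edgeR 4.0.16 in R 4.3.3 after filterByExpr with TMM factors, and DESeq2 1.42.0 was an alternative. Within-mouse ratios used log2 of CPM + 10. Cells were thinned to 1000 UMIs to compare shares, and groups under 50 cells were not used. The fitting was tested on simulated data. The clone was the set of cells with the most frequent productive TRB sequence or the TRA sequence most often read with it, and the other cells had any other productive receptor. Where the clone was removed, T-like cells without a sequenced receptor were kept, so some clone cells could remain. Cells with at least 1 Foxp3 UMI were Foxp3-gated, and Cd4-gated or Cd8-gated cells had UMIs of that coreceptor and none of the other, Foxp3 or Trdc. The clone and the other cells with a sequenced receptor were paired by mouse, since both came from the same library. Intervals cover counting error only, and p-values measure the spread between these mice.

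The 8 genes are always named, and genes of the fixed lists are named where their summed level reached 5 CPM or where they are a ligand or receptor of a member. The members and lists were chosen with earlier results of these data known.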

Additional observations from a re-analysis of the deposited data

Results flagged for a closer look

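In 16 groups of 5 BCR mice, each for 1 gene in whole libraries or in T-like cells, 7 had 1 mouse far from the others by Dixon's test. Chance flags about 1 in 20 independent groups, but these groups share 5 mice, each T-like value is part of a whole-library value, and the genes were chosen from their levels, so the 2 shares cannot be compared. In all 7 the mouse was 29. In its whole library Areg was at 99.6 CPM (14.6 to 29.4 in the other 4 mice), Il1rl1 at 21.6 (0.428 to 3.11), Ramp3 at 33.01 (0.695 to 7.39), Calcrl at 123 (6.27 to 30.5) and Tnfsf8 at 181 (4.70 to 20.9). T-like cells made up 36.4% of this library and 6.12%, 7.72%, 35.0% and 13.0% of those of mice 27, 31, 33 and 34, and their part in the whole-library values was not tested. In its T-like cells Il1rl1 was at 127 CPM (0.823 to 15.7) and Ramp3 at 194 CPM (23.8 to 32.9).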

How the results depend on the processing

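In the TCR against BCR comparison, 3 genes were called, 234 by DESeq2, 176 with no filter on low counts, 0 outside the clone family (1094 at an unadjusted p under 0.05), 1 with T cells taken by marker UMIs, 26 without the Ikzf2-led cluster (an alternative chosen after seeing the data) and 0 to 29 with 1 mouse left out (27 without mouse 29, 29 without mouse 30, 0 without any other, with 830 to 1182 at an unadjusted p under 0.05). The cause was not tested. Of 112 alternative values of the members, 102 kept their direction and side of the threshold and 10 moved, all of Areg, Il1rl1 and Ramp3, none called. In the clone comparison, the pairing by mouse mattered: with the replicate block 5 genes were called and with no replicate block 0 (425 at an unadjusted p under 0.05). DESeq2 called 183, edgeR with no filter 386, and T-like class cells alone 0 (954 at an unadjusted p under 0.05). Of 40 alternative member values 37 kept their side and 3 gained significance. Of the members, 3 were higher in Foxp3-gated cells in all mice, 6 with T cells by marker UMIs (1 mouse only), 5 after thinning (2 mice), 3 with T clone cells removed and 3 to 4 with 1 mouse left out. Leaving out a mouse was not run for the clone comparison, since 1 pair leaves no residual degrees of freedom, and the gate at 2 or more Foxp3 UMIs left no mouse with enough cells on both sides. After thinning, the mean percent of T-like cells with a UMI fell from 7.05 to 3.58 for Ramp1, 23.0 to 14.1 for Tnfrsf9, 21.7 to 13.4 for Calcrl, 8.15 to 5.24 for Ramp3 and 47.4 to 34.3 for Il7r, the last by more than the SD between mice.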
